A study of Mus musculus with 30 samples.

Results

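The baseline DNA methylation of mouse sperm was described gene by gene in the 15 vehicle libraries of a series of 30, without any contrast between treatments. The vehicle mice were C57BL/6J males, 7 weeks old when purchased, that drank reverse-osmosis (RO) water alone. They were housed singly on a diet with 10% of its energy from fat under 14 h of light and 10 h of dark, and were sampled after 9 weeks of treatment. The other 15 mice of the series drank the same water with cadmium and were not used. By its label, each library is the mature sperm of 1 mouse. The sperm were washed from both cauda epididymides, the tail of the duct in which sperm are stored. The label protocol describes a sperm wash but no lysis of other cells. Reduced representation bisulfite sequencing (RRBS) reads CpG-rich fragments of the genome after bisulfite has converted unmethylated cytosines, so that the methylated share of the reads at a CpG is its methylation level.

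A gene end was the window of 1 kb either side of the start or the 3′ end of a RefSeq gene on GRCm38, and it was measured where it held 3 or more CpGs covered by 10 or more reads in all 15 mice. Of 66154 such windows of 33077 genes on chromosomes 1 to 19, 17231 were measured. They held 14938 distinct sets of CpGs, since neighbouring genes can share a window. Such sharing is given below for some of the named genes only. The strand, which tells the start from the 3′ end, was known for 25747 genes, of which 11286 starts and 2327 3′ ends were measured. The 3618 measured ends of genes without a strand were counted among all gene ends only. The choice of windows used coverage and not methylation. A window with 3 CpGs entered and one with 2 did not, which took in 1581 gene ends at the limit and left out 2030. The level of a gene end in a mouse is the percent of methylated reads over all its CpGs, and the value of a gene end is the mean ± SD over the 15 mice.

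DNA methylation in mammals is set mostly at CpG dinucleotides. Promoters rich in CpGs, called CpG islands, generally stay free of it, whereas most CpGs elsewhere carry it. In the male germ line the pattern is erased in the primordial germ cells and written again before birth, largely by the methyltransferases Dnmt3a and Dnmt3c with the cofactor Dnmt3l. A small number of imprinted control regions differ between the parental genomes: the paternally imprinted ones, such as that of H19, carry methylation in sperm, and the maternally imprinted ones lack it there but have it on the copy from the mother in body cells.

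Stretches of 250 bases before a RefSeq-listed start show what the 3 classes of gene start look like in sequence. They are read 5′ to 3′ on the gene's strand from the RefSeq promoters of GRCm38.p6, with the CpGs measured in all 15 mice in capitals, and were chosen after their values were seen. Phf13 (chr4:151996180-151996429, minus strand), which encodes a PHD finger protein, has the gene start with the most measured CpGs. Of the 26 CpGs in its stretch 23 were measured, and all 23 were under 20%.
Phf13: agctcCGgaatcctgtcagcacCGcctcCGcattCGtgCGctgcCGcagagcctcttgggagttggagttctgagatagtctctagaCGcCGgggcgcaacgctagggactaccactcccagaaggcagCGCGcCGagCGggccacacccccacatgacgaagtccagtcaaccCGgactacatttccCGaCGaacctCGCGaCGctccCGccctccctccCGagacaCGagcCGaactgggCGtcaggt
Hormad1 (chr3:95559429-95559678, plus strand) encodes a protein of the meiotic chromosome axis and is shown as a partial start whose CpGs all lie together. Its 9 measured CpGs, of 19, ran from 28.2% to 35.0%, and their mean was 31.0% ± 25.5 (SD, n = 15).
Hormad1: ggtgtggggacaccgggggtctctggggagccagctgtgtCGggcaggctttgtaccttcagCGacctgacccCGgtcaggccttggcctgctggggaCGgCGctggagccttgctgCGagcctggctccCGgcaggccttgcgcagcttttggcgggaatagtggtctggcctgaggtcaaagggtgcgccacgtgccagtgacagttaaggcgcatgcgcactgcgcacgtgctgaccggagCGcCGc
Tmem267 (chr13:119488223-119488472, plus strand), which encodes a transmembrane protein, has the partial start with the most CpGs, and the stretch lies before a second listed start, 387 bp from the gene start. Its 34 measured CpGs, of 39, were at 1.41% to 99.8%, with 5 under 20%, 23 between the limits and 6 over 80%.
Tmem267: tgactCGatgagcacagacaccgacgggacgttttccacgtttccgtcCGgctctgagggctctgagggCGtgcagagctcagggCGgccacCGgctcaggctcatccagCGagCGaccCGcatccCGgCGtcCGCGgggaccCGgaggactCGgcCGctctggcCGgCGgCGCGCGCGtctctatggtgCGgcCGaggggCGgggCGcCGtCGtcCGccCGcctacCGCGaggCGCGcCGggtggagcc
Proz (chr8:13060658-13060907, plus strand) encodes protein Z, a vitamin K-dependent plasma protein made in liver, and is shown for a methylated start. It has 7 CpGs in this stretch before a start 324 bp from the gene start, and the 3 measured ones were at 83.8% to 93.4%.
Proz: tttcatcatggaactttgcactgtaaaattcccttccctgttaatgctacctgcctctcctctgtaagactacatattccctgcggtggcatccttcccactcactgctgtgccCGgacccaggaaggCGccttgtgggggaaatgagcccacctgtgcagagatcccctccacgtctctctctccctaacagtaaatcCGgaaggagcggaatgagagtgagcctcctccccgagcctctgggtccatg

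Most gene starts were unmethylated in vehicle sperm. With limits of 20% and 80%, 10370 of the 11286 measured starts (91.9%) were unmethylated, 647 (5.73%) were partial and 269 (2.38%) were methylated, and the median start stood at 0.691%. The 3′ ends were spread over the whole scale: 1103 of 2327 (47.4%) were unmethylated, 559 (24.0%) partial and 665 (28.6%) methylated, with a median of 24.9%. Over all 17231 gene ends the counts were 14451 (83.9%), 1579 (9.16%) and 1201 (6.97%). The mean start level was 5.99% ± 0.496 over the mice and ran from 5.13% to 6.88%, and the mean 3′ end level was 40.1% ± 0.770. Protein-coding starts were unmethylated in 8767 of 9181 cases (95.5%), partial in 316 (3.44%) and methylated in 98 (1.07%). Chromosome 18 had no coding gene of known strand and so gave no coding start to these counts. Among the other chromosomes the unmethylated share of coding starts was lowest on chromosome 15 (91.6%) and highest on chromosome 10 (98.1%).

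**Figure D1:**
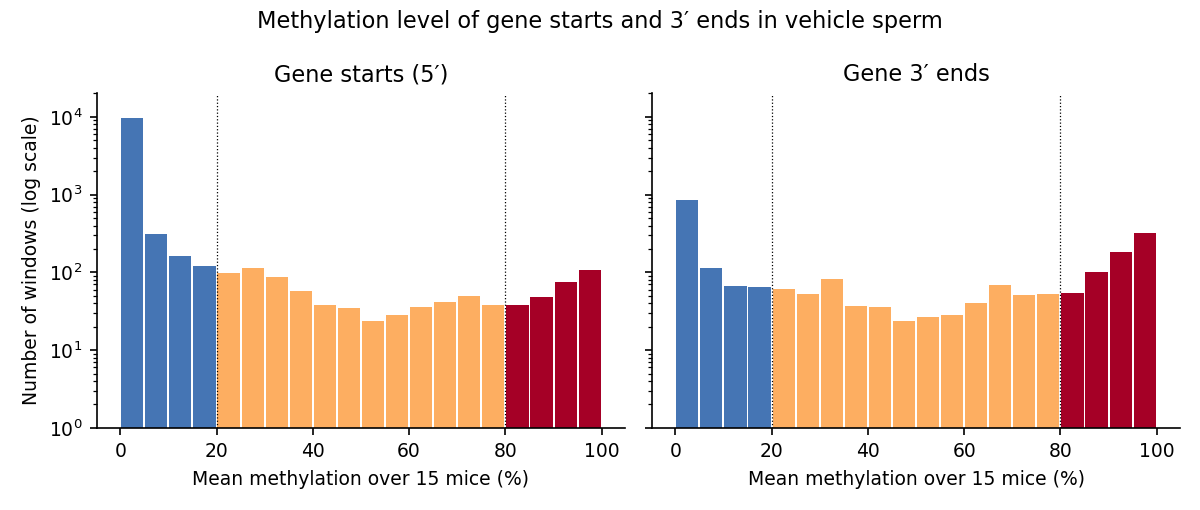
Number of measured gene starts (left) and 3′ ends (right), on a log scale, by mean methylation over the 15 vehicle mice in bins of 5 points; blue is under 20%, orange 20 to 80% and red over 80%. Of the 11286 starts 10370 lie in the blue bins, while 665 of the 2327 3′ ends lie in the red ones.

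The measured gene ends held 263529 CpGs, of which 95.1% were under 20%, 3.07% between 20% and 80% and 1.86% over 80%. Of the 284588 other CpGs with the same coverage, 34.1% were low, 22.4% in between and 43.4% high. Depth was similar throughout: summed coverage was 53591172 to 94090975 per library, and the median coverage of CpGs with 10 or more reads was 32 to 46. The methylated control sequence read 98.0% to 98.7% and the unmethylated one 0.0740% to 0.666%, so a level below 1% is near the floor of the conversion. Counts of reads at neighbouring CpGs are not separate molecules. The counting SDs given below treat them as separate, so they can be too small, and they cover sampling of reads only.

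Around coding starts the level was lowest close to the start. It averaged 1.06% ± 0.117 (SD, n = 15) in the first 100 bp, rose to 9.75% ± 1.35 in the bin that begins 1000 bp before the start, and to 3.14% ± 0.364 in the bin that begins 900 bp after it. The lncRNA starts were at 4.82% ± 0.499 in the first 100 bp and 9.17% ± 0.625 in the bin that begins 900 bp after. Around coding 3′ ends the level stood at 31.2% ± 2.90 in the bin that begins 400 bp before the end and fell to 11.2% ± 0.465 in the bin that begins 900 bp beyond it.

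**Figure D2:**
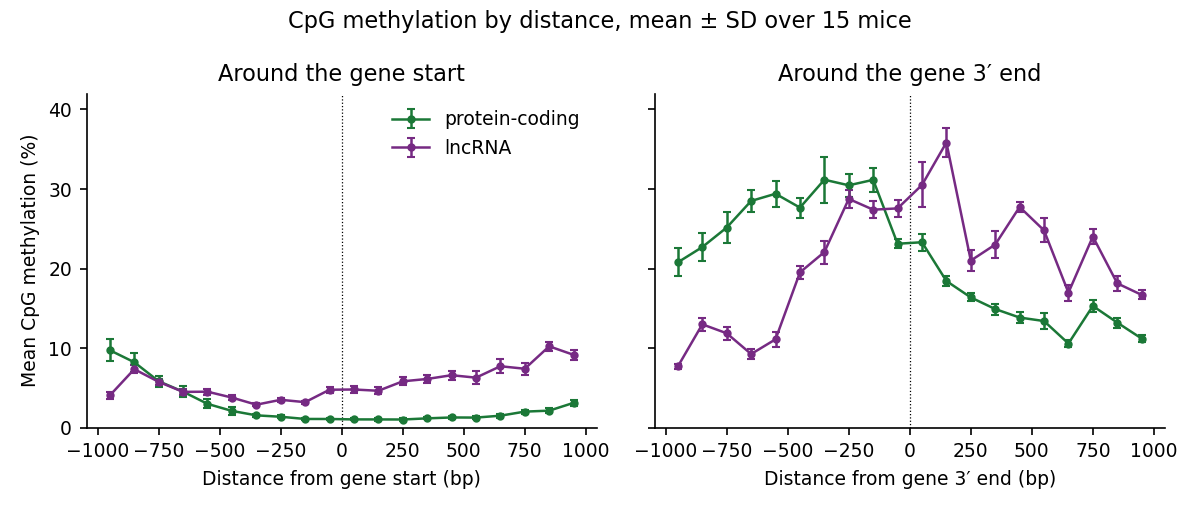
Mean methylation of measured CpGs (%) in 100 bp bins by distance (bp) from the gene start (left) and from the gene 3′ end (right) for protein-coding and lncRNA genes; points are means and bars SDs over the 15 mice. Coding starts sit near 1.06% in the first 100 bp, while coding 3′ ends reach 31.2% before the end of the gene.

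The unmethylated starts with the most CpGs were at or below 1.14% in every mouse. Phf13 (start at position 151996179 of chromosome 4, 129 CpGs) was at 0.107% in the lowest mouse, 0.453% in the median one and 1.14% in the highest, with a mean of 0.481% ± 0.278 (n = 15). Ccdc92, a coiled-coil protein gene, was at 0.646% ± 0.263 over 125 CpGs. Zfp664, a zinc finger gene that starts close by on the other strand, was at 0.599% ± 0.198 over 123. The windows of Ccdc92 and Zfp664 largely overlap, so they are not separate examples. Dyrk1a, a protein kinase gene, was at 0.404% ± 0.233 over 124 CpGs, Dpy19l1, which encodes a protein C-mannosyltransferase, at 0.376% ± 0.201 over 113, and Elf2, an ETS family transcription factor gene, at 0.414% ± 0.166 over 113. All of the measured CpGs in these 6 windows were under 20%.

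The class of a coding start went with the CpG content of its promoter sequence. Observed over expected CpG, the number of CpGs in the 300-base RefSeq promoter relative to what its C and G content would give, had a median of 0.794 with 22 CpGs for unmethylated starts. The medians were 0.392 with 8 CpGs for partial starts, 0.238 with 5 for methylated ones and 0.187 with 3 for starts that were not measured. In promoters under 0.2 on this scale 45.7% of 138 starts were unmethylated, 32.6% partial and 21.7% methylated. The unmethylated share was 76.7% of 446 from 0.2 to 0.4, 92.6% of 998 from 0.4 to 0.6, 98.3% of 2163 from 0.6 to 0.8 and 99.5% of 3327 at 0.8 or more. These counts rest on genes with a listed promoter within 100 bp of the gene start. RRBS sees CpG-poor promoters rarely, so the classes describe the CpG-rich part of the genes better than the rest.

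**Figure D3:**
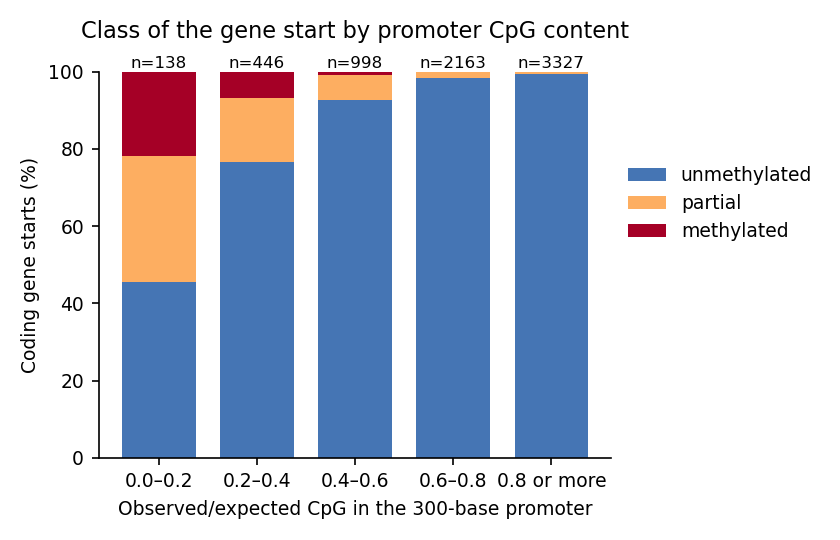
Percent of coding gene starts that were unmethylated, partial or methylated, by observed over expected CpG of the 300-base promoter; n is the number of starts in each bar. The unmethylated share climbs from 45.7% in the first bar to 99.5% in the last.

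Methylated coding starts had few measured CpGs and high levels in nearly every mouse. Their windows held a median of 4 CpGs, against 19 in unmethylated starts. Of the 10 with the most CpGs, Syne4, which encodes an outer nuclear membrane nesprin, had 11 CpGs and ran from 75.7% to 100% with a median of 84.1% (mean 84.3% ± 6.80). Nos1, the neuronal nitric oxide synthase (chromosome 5, start at 117866839), ran from 81.5% in mouse 4 to 98.9% in mouse 9 with a median of 95.1%. The predicted gene Gm13090 was at 97.7% ± 1.61 and Lat, the adaptor of T cell receptor signalling, at 97.7% ± 1.58, over 7 CpGs that are also those of the 3′ end of Spns1. Lrrc52, a potassium channel subunit of sperm, was at 93.9% ± 4.05, Pygm, the muscle glycogen phosphorylase, at 94.0% ± 4.89 and Spp2, a secreted phosphoprotein gene of liver and bone, at 95.7% ± 4.09. Proz was at 85.7% ± 8.61 and ran from 69.7% to 97.6%, Zbtb8b, a zinc finger gene, was at 92.9% ± 4.43, and Bhlha15 (Mist1), a transcription factor gene of secretory cells, at 80.7% ± 4.88, close to the limit of 80%.

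Some genes with a methylated first start had another listed start. Of the 98 methylated coding starts, 18 genes had a further listed start more than 2 kb away, 15 of these had such a start measured, and in 14 of the 15 at least 1 was unmethylated. The 14 genes were Ak4, C1ql4, Cbfa2t3, Dcun1d1, Igsf11, Kctd7, Oscp1, Rcc1l, Runx3, Slc38a9, Trip12, Ttll3, Unc13c and Zbtb8b. Runx3, a transcription factor gene of T cells and neurons, had a start 31900 bp away with 74 CpGs at 1.05%, and Dcun1d1, a neddylation factor gene, had one 5138 bp away with 76 CpGs at 0.481%. At further starts of Zbtb8b, Ak4 (adenylate kinase 4) and Cbfa2t3 (a transcriptional corepressor) the levels were 2.94%, 0.583% and 0.610%. For unmethylated starts the same counts were 995 genes with a further start, 427 measured and 356 with an unmethylated one, and for partial starts 57, 28 and 26, so an unmethylated further start was usual in every class.

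The partial class had the widest spread between mice. The median SD over mice was 18.3 points for the 647 partial starts, against 0.687 for unmethylated and 6.25 for methylated starts. Counting alone would give 2.58, 0.224 and 1.58 if each read at each CpG were a separate molecule. Reads that cover several CpGs make these values too small, by an amount that was not tested. Partial windows were mostly made of partial CpGs: 76.7% of their 3724 CpGs were between 20% and 80%, 16.8% lower and 6.47% higher, and in 347 of the 647 (53.6%) every CpG was in between. Only 38 held both a low and a high CpG. Partial starts had a median of 4 CpGs over 177 bp, so their levels rest on less sequence than those of unmethylated starts, with 19 CpGs over 592 bp.

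The number of partial starts differed more than 2-fold between mice. It was 314 in mouse 3, 521 in the median mouse and 780 in mouse 4, while the number of unmethylated starts ran only from 10229 in mouse 4 to 10646 in mouse 15. Within the partial class the median level ran from 22.2% in mouse 15 to 56.0% in mouse 13. The sperm label can be set beside the maternally imprinted germline regions, which are unmethylated in sperm. Over 11 such windows (Mcts2, Nnat, Mest, Nap1l5, Peg3 with Usp29, Snurf, Plagl1, Zrsr1, Peg13, Slc38a4 and Airn) the mean level was 4.48% in mouse 3, 14.0% in the median mouse and 41.2% in mouse 13 (mean 17.1% ± 10.6). It was under 10% in 4 mice (3, 5, 9 and 15) and over 25% in 3 (4, 12 and 13). Set against the sperm label, those 3 libraries were not unmethylated at these windows. In the 4 mice under 10% the means of the named windows ran from 0% for Airn, an antisense lncRNA, and Slc38a4, an amino acid transporter gene, with 3 CpGs each, to 13.5% for the lncRNA Peg13 and 13.6% for Mest, a hydrolase gene, with Plagl1, a zinc finger gene, at 9.76%. The paternally methylated end of H19 was at 87.8% in its lowest mouse, 96.1% in the median and 98.4% in the highest. The mitochondrial share of coverage, also lowest in mouse 3 (0.0128%) and highest in mouse 13 (0.119%), moved with the same mice. What sets the maternal level, and its part in the values below, was not tested.

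**Figure D4:**
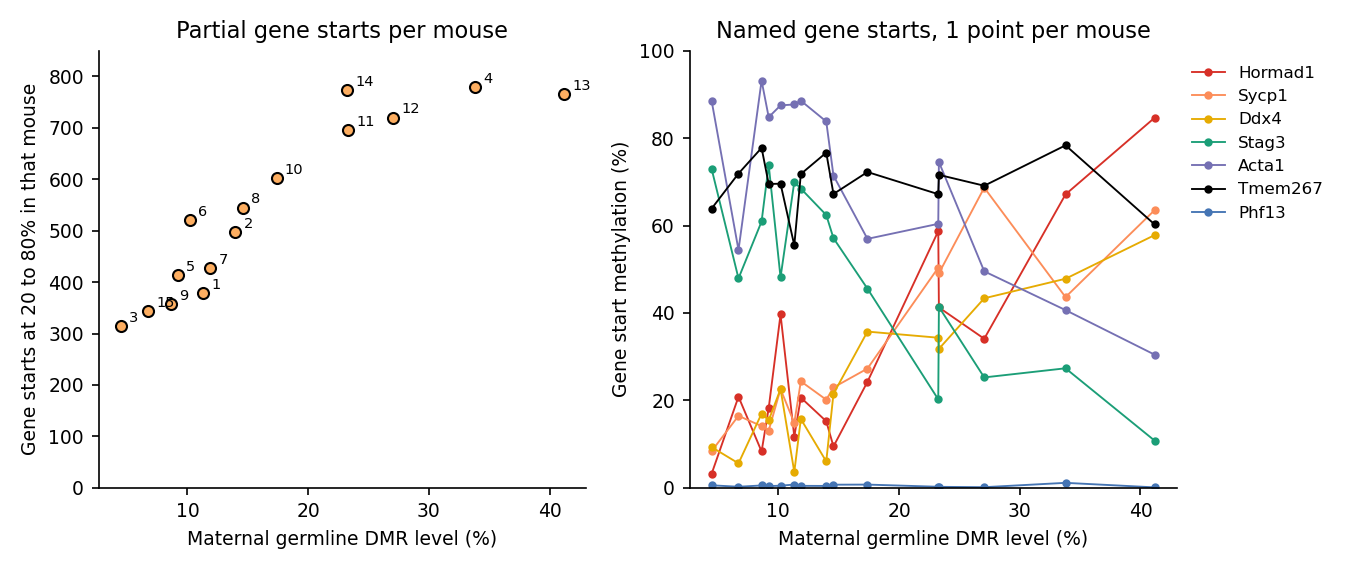
Left: number of gene starts at 20 to 80% in each vehicle mouse (numbered) against that mouse's mean methylation over 11 maternally imprinted germline windows (%). Right: methylation (%) of 7 named gene starts in the same mice, 1 point per mouse, joined in order of the maternal level. Partial starts number 314 in mouse 3 and 780 in mouse 4; Hormad1, Sycp1 and Ddx4 are higher and Stag3 and Acta1 lower in mice at the right, while Tmem267 stays between 55.5% and 78.4% and Phf13 at or below 1.14%.

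A slope of each gene end on this maternal level was fitted over the 15 mice, a fit added after the data were seen, with the imprinted windows left out. Among 17217 gene ends 1362 rose (7.91% of those tested) and 523 fell (3.04%) with an adjusted p under 0.05. Among 644 partial starts 278 rose (43.2%) and 108 fell (16.8%), among 10361 unmethylated ones 410 rose and 14 fell, and among 269 methylated ones 1 rose and 52 fell. The class was set by the mean over these same mice, so a start that rises or falls can be placed in the partial class by that change, and the counts by class are a description only. Leaving out mice 4 and 13, whose levels lie farthest from the median, 450 gene ends rose and 148 fell. The partial starts then gave 117 rising and 33 falling. All 386 that had been called with every mouse kept their sign, but the fits share 13 mice, so this is no separate support. Reading the class in the 4 mice under 10% alone, 243 of the 644 partial starts were unmethylated, 325 partial and 76 methylated. Of 10361 unmethylated starts 10348 stayed so in those 4 mice, and of 269 methylated ones 262.

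Germ cell genes with many CpGs lay among the partial starts that rose. Hormad1 (chromosome 3, start at 95559677, 14 CpGs) was at 3.26% in mouse 3, 20.8% in the median mouse and 84.6% in mouse 13. Its slope was 1.998 ± 0.279 (SE) points per point of the maternal level (limma, adjusted p = 3.11e-04), and 1.59 with adjusted p = 0.0994 without mice 4 and 13. Sycp1, which encodes the transverse filament of the synaptonemal complex, had 20 CpGs and ran from 8.42% in mouse 3 through 23.0% to 68.7% in mouse 12. Its slope was 1.64 (adjusted p = 2.15e-04, and 0.00106 without mice 4 and 13). Ddx4 (Vasa), an RNA helicase of germ cells, had 21 CpGs and ran from 3.63% in mouse 1 through 21.5% to 57.8% in mouse 13, and its slope was 1.45 (adjusted p = 8.75e-05 and 0.0168). In the 4 mice under 10% the mean of Ddx4 was 11.8%, that of Sycp1 13.03% and that of Hormad1 12.7%, all below the 20% limit. Promoters of several germ cell genes are known to be methylated in body cells; whether other cells took part in these values was not tested.

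Other partial starts with many CpGs also rose. Cercam, a cell adhesion gene, had 26 CpGs, shared with the 3′ end of Urm1, and ran from 10.5% in mouse 3 to 69.6% in mouse 13 (slope 1.61). Znrf4, a testis-expressed ubiquitin ligase gene, ran from 3.16% in mouse 15 to 58.1% in mouse 13 (slope 1.498). Tdrd1, a tudor protein of the piRNA pathway, ran from 18.6% to 69.3% (slope 1.22) and stayed at 25.8% in the 4 mice under 10%. The widest SDs among partial starts with 10 or more CpGs were those of Btbd18 (24.1 points, a window shared with the start of Ctnnd1), Hormad1 (23.8), D1Pas1 (22.4), Arl9 (22.3) and Naa11 (21.2). Btbd18 is a regulator of piRNA transcription and D1Pas1 an RNA helicase gene of the testis. In each of these 5 the highest mouse was mouse 13.

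No slope on the maternal level was called for the partial start with the most CpGs. Tmem267 (chromosome 13, start at 119488086, 71 CpGs) ran from 55.5% to 78.4% with a median of 69.6% and a mean of 69.5% ± 6.24, the smallest SD among partial coding starts with 10 or more CpGs. The lncRNA 3110070M22Rik, whose start lies close by on the other strand, was at 70.6% ± 6.19 over 68 CpGs. The 2 windows largely overlap, so this is not a separate example. In the 4 mice under 10% of the maternal level Tmem267 was at 70.8%. Its window carried 233 reads per CpG, against a median of 72.2 over gene starts, and its level was 66.8% after CpGs of the highest coverage were left out. The cause of the higher coverage was not tested, and reads of another copy of the sequence cannot be told apart in these tables. Vmn2r29, a vomeronasal receptor gene, also had high coverage (162 reads per CpG), ran from 21.3% in mouse 4 to 51.9% in mouse 9 and fell with the maternal level by 0.79 points per point (adjusted p = 0.00392, and 0.155 without mice 4 and 13).

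The other partial coding starts of small SD, and Arl6ip4, were windows with a low part close to the start. Mettl22, which encodes a lysine methyltransferase, was at 28.8% ± 6.95 with 17 CpGs under 20% and 5 over 80%, and within 500 bp of the start it was at 0.873%. Sec31b, a COPII coat gene, was at 24.5% ± 6.87 with 11 low and 3 high CpGs and at 1.10% within 500 bp. Commd6, a COMM domain gene, was at 20.3% ± 6.94 with 9 low and 2 high CpGs and at 0.793% within 500 bp. Cib2, a calcium-binding protein gene of hair cells, with 11 low and 0 high CpGs of 15, went from 21.3% to 2.35%. It also rose with the maternal level (slope 0.536, limma, adjusted p = 0.00137, and 0.0803 without mice 4 and 13). In the 4 mice under 10% of that level Cib2 was at 15.6%. Arl6ip4, a splicing regulator gene, with 17 low and 0 high of 20, went from 23.2% to 0.555%. Levels of such windows also moved with depth and weighting. At a minimum of 20 reads Mettl22 was at 55.8% and Sec31b at 13.3%, and as an unweighted mean over CpGs Arl6ip4 was at 7.10% and Cib2 at 14.7%.

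Other partial starts fell with the maternal level. Acta1, skeletal muscle actin (chromosome 8, start at 123894775), has 7 CpGs that are also those of the Gm29773 start. It ran from 30.5% in mouse 13 through 74.6% to 93.2% in mouse 9. Its slope was -1.56 (limma, adjusted p = 0.00237), and adjusted p was 0.222 without mice 4 and 13. Stag3, the meiotic cohesin subunit, ran from 10.8% in mouse 13 through 48.1% to 73.9% in mouse 5. Its slope was -1.67 (limma, adjusted p = 5.95e-04, and 0.0282 without mice 4 and 13), and its 9 CpGs are also those of an end of Gal3st4. Lcn9, an epididymal lipocalin gene, ran from 44.0% in mouse 13 through 81.1% to 99.7% in mouse 5 (slope -1.42, adjusted p = 3.06e-04 and 0.0166). In the 4 mice under 10% Lcn9 averaged 93.7%, above the 80% limit, and Acta1 80.2%. Hoxd4 was chosen after its values were seen, as the only partial start among 16 measured Hox genes. It was at 61.1% ± 23.8 with a slope of -1.84 (limma, adjusted p = 0.00281, and 0.0757 without mice 4 and 13). Of the 16 Hox starts 6 rose, but only 1 was called as rising without mice 4 and 13. On the muscle list of 11 measured starts 4 rose (Des, Myog, Myl7 and Ryr2) and 2 fell (Acta1 and Myh4). Without mice 4 and 13 only Myl7 was called. Among all gene starts 6.11% rose and 1.54% fell with all 15 mice.

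Lists of housekeeping and developmental genes were nearly all unmethylated at their starts, as were 95.5% of all measured coding starts. All measured members were under 20% among genes of translation (13), basal transcription (16), the proteasome (15), glycolysis (14), DNA methylation and its enzymes (14), signalling ligands (22) and neurons (17). Examples are Eef1b2, a translation elongation factor gene, at 0.712% ± 0.223 over 62 CpGs, and Polr2l, an RNA polymerase subunit, at 0.552% ± 0.385. Psma7, a proteasome subunit, was at 0.357% ± 0.297 and Dnmt3b, a de novo methyltransferase gene, at 0.547% ± 0.388. The windows of Polr2l and Psma7 hold the same CpGs as the starts of Tspan4 and Ss18l1. That of Eef1b2 holds those of an end of Ndufs1. The highest levels in these lists were those of the growth factor gene Bmp4, at 18.7% ± 15.8, the proteasome subunit gene Psmb6, at 17.9% ± 9.86, and the muscle enolase Eno3, at 16.1% ± 5.73. Of 41 developmental transcription factor genes 40 were unmethylated, among them Nkx6-1 of neurons and pancreas at 0.690% ± 0.268 over 85 CpGs and Six2 of the kidney at 0.818% ± 0.478 over 67. Gata3, a factor of T cells, was at 30.6% ± 17.4 over only 4 CpGs and fell with the maternal level (adjusted p = 0.0281, and 0.169 without mice 4 and 13). The median over all measured starts was 0.691%, and the list medians ran from 0.460% for the proteasome to 1.17% for the developmental factors.

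Germ cell lists held partial starts that in most cases were under 20% in the mice of low maternal level. Among all starts 5.73% were partial. Of 8 measured genes of germline genome defence 6 were partial and 2 unmethylated, with a median of 29.5%. In the 4 mice under 10% the median was 11.6% and 1 of the 8, Tdrd1, was partial. Beside Ddx4 and Tdrd1 these were Mael at 27.4% ± 25.5, Tdrd9 at 31.7% ± 26.1 and Tex101 at 32.8% ± 22.6, as well as Tex19.1 at 33.8% ± 19.3. Tdrd5 and Henmt1, the piRNA methyltransferase, were unmethylated at 0.672% and 12.4%. Of 19 meiosis genes 9 were partial and 10 unmethylated, with a median of 15.1%, but 3 partial (Sycp2, Tex14 and Stag3) with a median of 4.64% in the 4 mice. Sycp2 was at 45.5% ± 17.0, Tex14 at 37.2% ± 21.4 and Sycp3 at 26.0% ± 17.4, while Syce2, Mei4, Dmc1, Smc1b and Hspa2 were all under 2%. The windows of Smc1b and Hspa2 hold the same CpGs as the start of Ribc2 and an end of 4930426I24Rik. Rising slopes were called for 13 of the 19 meiosis genes and 5 of the 8 defence genes, with Mael in both lists, beside 6.11% of all gene starts, and a falling slope for Stag3. Without mice 4 and 13, 4 of the 13 and 3 of the 5 were still called. Over all gene starts without those mice, rising slopes were called for 0.956% of unmethylated, 18.2% of partial and 0% of methylated ones. Dazl, an RNA-binding protein of germ cells with 34 CpGs, was unmethylated on average at 14.6% ± 11.6 but ran from 0.713% in mouse 9 to 37.3% in mouse 4 (slope 1.05, adjusted p = 1.11e-05, and 0.00137 without mice 4 and 13).

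Genes of the spermatid, the cell that becomes a sperm, were found in all 3 classes. Of 14 measured starts 8 were unmethylated, 4 partial and 2 methylated. The kinase genes Tssk3 and Tssk6 were at 1.92% ± 0.983 and 1.54% ± 1.73, and Catsper2, a subunit of the sperm calcium channel, at 0.812% ± 0.588. The windows of Tssk3 and Catsper2 hold the same CpGs as the starts of Fam229a and Pdia3. In the 4 mice under 10% the counts were 10, 2 and 2. The partial ones over all mice were Tnp1, a transition protein, at 29.7% ± 18.5, Tekt2, a tektin of the flagellum, which ran from 15.3% to 66.0%, Acrbp of the acrosome at 28.3% ± 14.0 and the linker histone gene H1f7 at 31.8% ± 21.4. Tnp1 and H1f7 rose with the maternal level (slopes 1.43 and 1.66), and neither was called without mice 4 and 13. The methylated ones were Izumo1, the sperm protein that binds the egg, at 95.0% ± 7.22 over 3 CpGs also at the 3′ end of Fut1, and Spaca4, a surface protein of the acrosome, at 99.1% ± 2.32 over 4. Spaca4 was at 100% in each of the 4 mice under 10%. Of 9 pluripotency genes 7 were unmethylated, such as Klf4 at 0.324% ± 0.297 and Sox2 at 1.09% ± 0.651. Pou5f1 (Oct4), with 4 CpGs, was at 44.4% ± 18.7 and Zfp42 (Rex1), with 6, at 24.2% ± 20.8, and both rose with the maternal level (adjusted p = 0.00567 and 1.53e-04, and 0.159 and 0.0568 without mice 4 and 13).

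**Figure D5:**
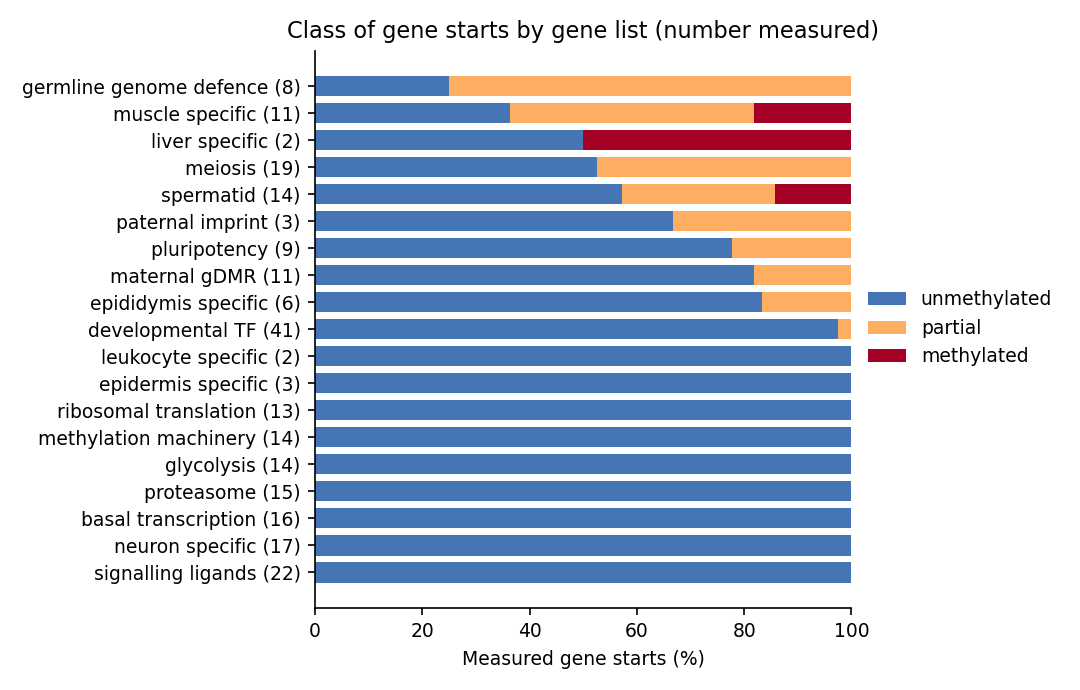
Percent of the measured gene starts of each list that were unmethylated, partial or methylated, with the number measured in brackets. Lists of housekeeping genes are wholly unmethylated, while germline genome defence has 6 of 8 and meiosis 9 of 19 partial starts by the mean over all 15 mice.

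Lists for other cell types were measured thinly. Of 11 muscle genes 4 were unmethylated, 5 partial and 2 methylated (7, 0 and 4 in the 4 mice under 10%). Mylpf, a myosin light chain gene, was at 0.483% ± 0.278 over 57 CpGs that are also those of the Tbc1d10b start. Myh4, a myosin heavy chain gene, was at 75.1% ± 21.8 and Tnni1, slow troponin I, at 96.1% ± 2.43. Of 40 leukocyte genes 2 starts were measured, Coro1a at 3.13% ± 2.003 and Fcgr3 at 1.81% ± 3.69. Of 29 epididymis genes 6 were measured, of which 5 were unmethylated and 1 partial. The partial one was Lcn9, at 76.3% ± 17.0 over all mice and 93.7% in the 4 mice under 10%. Among the unmethylated ones the claudin genes Cldn3 and Cldn4 were at 1.17% ± 1.199 and 10.3% ± 4.94. The 2 measured liver genes lay at opposite ends, Apoa2 at 1.34% ± 1.79 and Ambp at 94.1% ± 7.58. All 3 measured epidermis genes were unmethylated. Among paternally imprinted genes Dlk1 and Rasgrf1 had unmethylated starts (0.489% ± 0.811 and 1.33% ± 1.25), and Meg3 was at 28.2% ± 15.3 over 3 CpGs. Where the imprinted control regions of these genes lie relative to the start windows was not examined.

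Gene families grouped by symbol gave a like split. Of 199 measured Zfp genes 196 were unmethylated and 3 partial, Zfp157, Zfp777 and Zfp42. Of 175 solute carrier genes 167 were unmethylated, 7 partial and 1, Slc38a9, methylated at 89.5% ± 11.3. All 25 kinesin starts and 51 of 53 ribosomal protein starts were unmethylated, and the partial ribosomal ones were Rpl22 at 68.5% ± 14.3 over 5 CpGs and the testis paralogue Rpl39l at 28.4% ± 18.9. Rpl22 was at 58.9% in the 4 mice under 10% and Rpl39l at 10.0%. Keratin genes had 1 unmethylated start and 7 partial ones of 8 measured, and these ran up to 77.1% ± 12.9 for the hair keratin Krt84. Of 21 histone starts 18 were unmethylated, and the testis histone H2bc1, at 30.5% ± 24.6, was among the 3 partial ones, while all 21 were under 20% in the 4 mice under 10%. In those mice 4 of the 8 keratin starts were partial. The olfactory receptors, 1104 listed genes, had only 4 measured starts. Members named in this paragraph were picked after their values were seen.

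Of 2105 lncRNA starts 1603 (76.2%) were unmethylated, 331 (15.7%) partial and 171 (8.12%) methylated. The shares depended on whether a coding start lay near. Both ends of a coding gene without a strand counted as coding starts here. Of 1219 lncRNA starts within 2 kb of a coding start 1168 (95.8%) were unmethylated, and of 886 others 435 (49.1%), while 295 (33.3%) were partial and 156 (17.6%) methylated. Gm7467, with 118 CpGs, was at 0.469% ± 0.261, and Phf2os1, whose window is that of the Phf2 start, was at 0.611% ± 0.248 over 105. Gm46603, with 22 CpGs, ran from 8.11% in mouse 9 through 23.8% to 69.1% in mouse 13. Among methylated ones Gm34939 was at 93.2% ± 4.69 and Gm51601 at 92.7% ± 3.91, both over 10 CpGs.

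Starts and 3′ ends of the same gene were compared within mice in the 1088 genes that had both windows measured without overlap. The start was lower in 715 genes (65.7% of those tested) and higher in 91 (8.36%) by limma with an adjusted p under 0.05. With a difference of 20 points or more also required, 557 were lower (51.2%) and 43 higher (3.95%). The median start was 0.767% and the median 3′ end 32.3%. An unmethylated start came with a methylated 3′ end in 332 genes, with a partial one in 211 and with an unmethylated one in 448, and a methylated start with an unmethylated 3′ end in 10. Where no listed gene start lay within 2 kb of the 3′ end the median 3′ end was 72.5% (683 genes), and where one did it was 1.32% (405 genes). Listed starts here include those of the same gene and, since their strand is unknown, both ends of genes without a strand.

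The largest called differences with 10 or more CpGs in both windows were nearly the full scale. Sstr2, a somatostatin receptor gene, was at 0.716% ± 1.24 at its start and 97.2% ± 2.40 at its 3′ end, lower at the start in 15 of 15 mice (limma, adjusted p = 6.59e-23). Srsf4, a splicing factor gene, went from 0.384% ± 0.420 to 96.1% ± 1.80, and Snrnp70, a protein of the U1 snRNP, from 1.39% ± 1.67 to 96.9% ± 1.10 over 30 CpGs. Brsk1, a kinase gene of neurons, went from 1.10% to 94.6% and Pcif1, which encodes an mRNA cap methyltransferase, from 0.450% to 89.6%, with a 3′ end that fell to 69.2% in mouse 13. In the other direction differences were small. Lyl1, a transcription factor gene of blood cells, was at 18.5% ± 12.2 at its start and 6.56% ± 4.50 at its 3′ end (higher at the start in 13 of 15 mice, adjusted p = 5.89e-04), and its start rose with the maternal level by 1.07 points per point. Ccdc106, a coiled-coil gene, was at 11.7% ± 10.1 against 0.615% ± 0.744, and its start rose with that level by 0.85. Catsperz, a subunit of the sperm calcium channel, was at 6.44% ± 5.49 against 0.713% ± 1.03, over a 3′ end that holds the same CpGs as the start of Esrra. The differences of Ttc38 and Sptbn4 were 3.47 and 3.37 points.

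The 3′ ends by themselves showed the same dependence on nearby starts. Starts were counted as above, with the gene's own starts and both ends of genes without a strand included. Of 1077 3′ ends within 2 kb of a listed gene start 809 (75.1%) were unmethylated, 153 partial and 115 methylated. Of 1250 without one 294 (23.5%) were unmethylated, 406 (32.5%) partial and 550 (44.0%) methylated, with a median of 71.7%. Partial 3′ ends varied between mice about as much as partial starts, with a median SD of 17.8 points, and methylated ones had a median SD of 5.27.

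More starts lay near the 20% limit than near the 80% limit. Of all measured starts 122 were at 15 to 20% and 99 at 20 to 25%, against 38 at 75 to 80% and 38 at 80 to 85%. The coding starts with 10 or more CpGs nearest each limit were as follows. Just below 20% were BC004004 at 19.97% ± 7.15 and the lactate transporter gene Slc16a3 at 19.7% ± 7.65, and just above it Commd6 at 20.3% and Cib2 at 21.3%. Near 80% the closest coding starts with 10 or more CpGs were Tmem267 at 69.5% and Klhl41, a muscle protein gene, at 48.0% ± 20.9 below the limit, and Syne4 at 84.3% above it. With limits of 10% and 90% in their place, 1016 starts were partial instead of 647.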

How the data were processed

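Methylation was measured by RRBS in 15 sperm libraries. Per the labels' protocols, genomic DNA came from washed cauda epididymal sperm. The deposited tables hold a read count for each cytosine on each strand, with the methylated fraction. Builds GRCm38 and mm10 are listed in the submitters' processing notes, as are the tools methylKit 1.12.0, Bismark 0.22.3, Trim Galore 0.5.0 and bcl2fastq, whose roles, like any deduplication, are not given in the sources used here. Methylated reads were fraction times count, rounded; the product was off a whole number by more than 0.1 at 1 cytosine of a library at most. Strands of a CpG were summed, and CpGs with 10 or more reads in all 15 mice were kept.

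Gene spans came from RefSeq on GRCm38.p6 and strands from its promoter table, which holds no entry for 7330 genes, so the ends of those were left unoriented. Gene ends on chromosomes 1 to 19 were classed on the unweighted mean over mice. Starts against 3′ ends and slopes on the maternal level were fitted with limma 3.58.1 in R 4.3.3 across all genes or gene ends, with Benjamini-Hochberg adjustment; the scripts were tested on simulated data. Other steps used Python 3.11.15 with pandas 2.3.3 and numpy 2.4.6. The genes, lists and limits were chosen with earlier results of these data known. Named genes were, among coding starts, the 6 unmethylated, 10 methylated and 10 partial ones with most CpGs, the 5 partial ones each with the smallest and largest SD (10 or more CpGs), up to 2 members per list and class, the 5 largest start-against-end differences each way, the 3 lncRNAs per class with most CpGs and the 2 starts nearest each limit; list members described beyond these were chosen after their values were seen. Each mouse was housed singly and gave 1 library, so n counts mice. Alternatives varied coverage, CpG number, window, limits and mice.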

Additional observations from a re-analysis of the deposited data

How the results depend on the processing

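Of 106 counts recomputed under alternatives, 72 stayed within 1.5 times the main count and 34 did not. The counts of unmethylated starts were among the former. In the order partial gene ends, methylated gene ends, partial starts, methylated starts, genes with a lower start and genes with a higher start, the counts were 925, 500, 394, 115, 348 and 52 at 20 reads, 725, 333, 297, 74, 308 and 53 with 5 or more CpGs, 858, 603, 397, 155, 289 and 23 within 500 bp, and 3042, 2326, 1177, 520, 1395 and 234 within 2 kb. These settings change how many windows are measured. Limits of 10% and 90% gave 2452 partial gene ends and 1016 partial starts. The 4 mice under 10% of the maternal level alone gave 890 partial gene ends, 345 partial starts and 51 genes with a higher start. For the slopes, without mice 4 and 13 the calls were 450 rising and 148 falling, on a logit scale 463 and 210, at 20 reads 268 falling, and with the mitochondrial share of coverage in place of the maternal level 1217 and 529; the cause of these differences was not tested. Of 1397 values of 164 named gene ends 49 moved by more than 1 SD. Partial and methylated starts hold a median of 4 CpGs, and their counts fell more under a minimum of 5 CpGs than under 20 reads. No paired analysis was possible because replicate numbers are shared only with the cadmium mice, which were not used; the comparison of starts with 3′ ends lies within each mouse and needs no such number.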
